A study of Mus musculus with 670 samples.

Results

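The genes Csf1, Il34, Tnfsf11 and Tnfrsf11b were followed across the single cells of a mouse skeletal ageing series. They were chosen by name as the secreted and surface signals through which skeletal cells act on osteoclasts, and they are 4 of the 55604 genes in the deposited table. The series holds skeletal stem cells, sorted by flow cytometry from digested long bones and sequenced by SmartSeq2, which reads whole transcripts 1 cell per well. There were 3 ages: postnatal day 3 (P3, 1 plate), 2 months (3 plates) and 24 months (3 plates). All wells are labelled male, untreated and free of prior culture. The titles carry the abbreviation ocSSC, which they do not spell out, and the strain is not given in the sources used here. No label names an animal, so each age counts as 1 sample, no test across samples was made, and plates are given as a description.

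Osteoclasts, the cells that resorb bone, arise from macrophage precursors that need a pair of signals. Macrophage colony-stimulating factor, encoded by Csf1, keeps the precursors alive through the receptor Csf1r, and interleukin 34 (Il34) is a second ligand of that receptor. RANKL, encoded by Tnfsf11, drives the precursors to become osteoclasts through its receptor RANK (Tnfrsf11a), and osteoprotegerin, encoded by Tnfrsf11b, is a secreted decoy receptor that captures RANKL. In the skeleton, RANKL is known from osteocytes, hypertrophic chondrocytes and marrow stromal cells, and osteoprotegerin from osteoblasts and chondrocytes.

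Cells were kept above a floor of 1000 genes and 50000 gene reads and below 20% mitochondrial reads. Of 670 wells 433 did not pass. The passing cells were 68 at P3, 15, 70 and 69 on plates 1, 3 and 4 of 2 months, and 5 on each of plates 2, 5 and 12 of 24 months. Passing cells had a median of 1100488 gene reads at P3, 677688 at 2 months and 2733865 at 24 months. A gene was called held when it had at least 1 read after the cell was thinned at random to 50000 reads, and levels are read counts scaled to the total of gene reads (CPM). Spike-in RNA took a median of 95.1% to 98.9% of reads in wells of 24 months and 76.01% on plate 1 of 2 months, against 5.88% to 11.5% on the other plates. Checked against marker lists, cells of the younger ages carried cartilage transcripts: the median cell of 2 months without Csf1 held 14 of 20 listed cartilage genes, as did the median P3 cell without it. None of the 14 listed macrophage and blood genes and none of the 6 endothelial genes had a read at 24 months. The macrophage and blood genes summed to 6.06 CPM at P3 and 5.89 to 24.02 CPM on the plates of 2 months. Of 9 listed osteoclast genes 2 had reads at 24 months (Ctsk and Nfatc1, up to 913.2 CPM over plates), while Tnfrsf11a, Mmp9 and Calcr were at 0 there. At P3 3 of the 9 had reads (418.8 CPM in sum), and at 2 months 7 did (78.65 to 427.1 CPM over plates). The 6 mural genes summed to 363.7 CPM at P3 and to 1.71 CPM at most on older plates, and the 5 adipocyte genes to 47.9 CPM at P3, 7.35 CPM at most at 2 months and 0 to 300.1 CPM over the plates of 24 months. Batch 3 is the only batch with cells of more than 1 age (P3 and 24 months), so age and batch cannot be told apart for 2 months. The intervals below cover counting error over cells only, and leave out differences between animals and plates. Reads include PCR copies and are not independent molecules.

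All 4 genes lie on the minus strand of GRCm38 (GENCODE) and code for proteins. Csf1 lies at chr3:107741048-107760469, Il34 at chr8:110741829-110805924, Tnfsf11 at chr14:78277445-78308043 and Tnfrsf11b at chr15:54250619-54278484. Il34 is overlapped by the antisense genes Gm15894 and Gm15895, and the strand setting of the counting is not given in the sources used here, so its reads cannot be told apart from theirs. The promoters of the receptor ligands Csf1 and Tnfsf11 are shown to let a reader compare the start regions of an M-CSF gene held at every age and of a RANKL gene found in 2 cells. Each sequence, from RefSeq on GRCm38.p6, covers bases -100 to -1 before the gene's start, 5′ to 3′ on the minus strand, and capitals mark matches to the motifs searched.
Csf1, chr3:107760470-107760569: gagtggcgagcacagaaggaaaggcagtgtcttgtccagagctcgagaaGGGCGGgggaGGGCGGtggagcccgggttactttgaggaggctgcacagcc
Tnfsf11, chr14:78308044-78308143: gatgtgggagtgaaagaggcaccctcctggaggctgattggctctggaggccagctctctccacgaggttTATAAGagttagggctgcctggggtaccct

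The motif search covered 300 bases, from 250 before to 50 after the start, on both strands. The GC box GGGCGG matched 2 times in Csf1, with first bases at -51 and -41, and 35.7% of 32851 mouse promoters of this length hold it at least once. The letters TATAAG of a TATA box matched once in Tnfsf11, with the first base at -30, and 7.43% of promoters hold them. The Runx motif TGTGGT, the AP-1 motif TGANTCA and the STAT motif TTCNNNGAA had no match in either window, and 16.8%, 7.81% and 8.30% of promoters hold them. These matches describe letters only. Of the 4 genes, Csf1 and Tnfsf11 were matched to a promoter sequence.

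RANKL was the rarest of the signals. Tnfsf11 had reads in 2 passing cells of the whole series. At P3 it was held by 1 of 68 cells (1.47%, exact 95% binomial interval 0.0372% to 7.92%), at 397 CPM in that cell. At 2 months it was held by 1 cell (0.649%, 0.0164% to 3.56%), on plate 3, at 357 CPM. None of the 15 cells of 24 months had a read, which allows a share of up to 20% (3 of 15 cells, the limit set for a count of 0). Both cells with RANKL carried a cartilage profile: each held 14 of the 20 cartilage genes and 2 of the 18 osteoblast genes. The median cell without RANKL also held 14 cartilage genes at both ages, so this profile was not particular to the 2 cells. The P3 cell had 55086 CPM of Col2a1, the main collagen of cartilage, and the cell of 2 months had 2982 CPM. Cnmd, which encodes chondromodulin, stood at 3240 and 4325 CPM in them, and neither had a read of the bone matrix gene Ibsp. The plate sums were 7.26 CPM at P3, 4.10 CPM on plate 3 of 2 months and 0 on the other 5 plates, so that a single cell set each value above 0.

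Osteoprotegerin was the most widely held signal at 2 months and was nearly absent at P3. Tnfrsf11b was held by 41 cells of 2 months (26.6%, 19.8% to 34.3%) and by 45 (29.2%) with all reads. At P3 it was held by 1 of 68 cells (1.47%, 0.0372% to 7.92%), and by 2 with all reads. At 24 months it was held by 3 of 15 cells (20%, 4.33% to 48.1%). The share at P3 lay below that of each plate of 2 months, with 1 plate of P3 and so no spread between plates there. Within 2 months the plates ranged from 12 of 69 cells on plate 4 (17.4%) through 4 of 15 on plate 1 (26.7%) to 25 of 70 on plate 3 (35.7%), and without plate 3 the share was 19.05%.

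**Figure D1:**
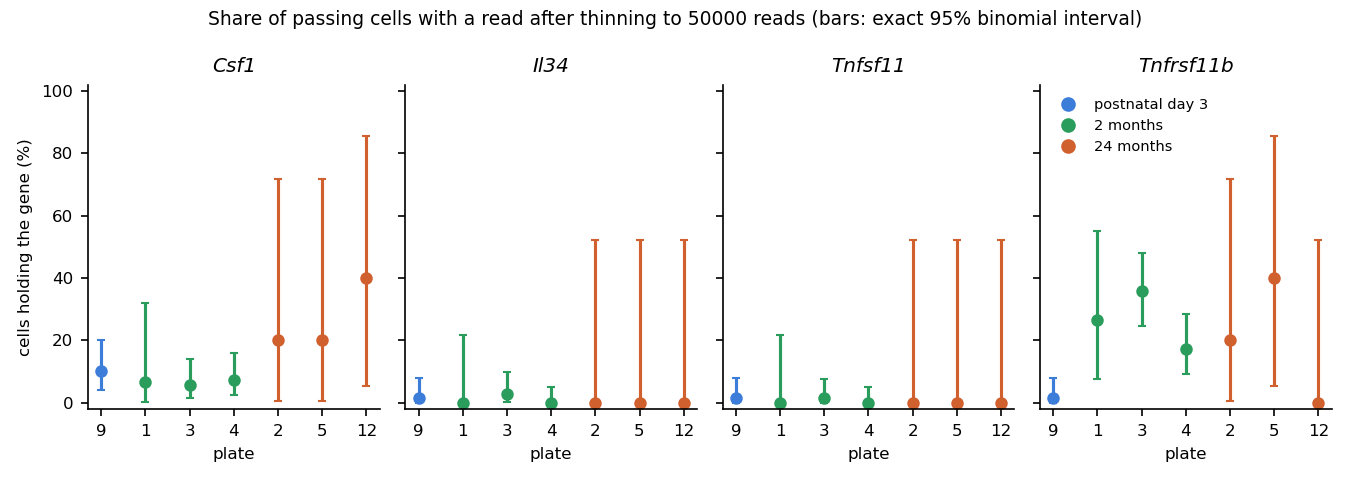
Share of passing cells (%, vertical axis) that held each gene after thinning to 50000 reads, for each plate (horizontal axis), coloured by age; bars are exact 95% binomial intervals. Tnfrsf11b stands at 17.4% to 35.7% on the plates of 2 months and at 1.47% at P3, and the bars of the 24-month plates, with 5 cells each, are wide.

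In plate sums, Tnfrsf11b stood at 17.8 CPM on the P3 plate, at 344.6, 596.4 and 172.4 CPM on plates 1, 3 and 4 of 2 months, and at 853.5, 116.3 and 0 CPM on plates 2, 5 and 12 of 24 months. The P3 plate lay below all plates of 2 months, and the plates of 24 months spanned both ages. The mean over plates was 371.1 CPM at 2 months (SD 213.2, n = 3 plates) and 323.3 CPM at 24 months (SD 462.9, n = 3 plates). The size rule asked for a 2-fold difference between the ages' means, plates that did not overlap, and no less than 10 CPM in the age with more. Tnfrsf11b was lower at P3 than at 2 months by this rule, with a log2 fold of -4.31 (1 CPM added to each mean), as were 10.1% of the 9656 genes tested. It met the rule in no other pair of ages. Its log2 fold of 24 against 2 months was -0.20. Without plate 2, whose whole sum came from 1 cell, this fold was -2.65 and met the rule. Its fold of 24 months against P3 was 4.11, and without plate 12, the plate at 0, it was 4.70 and met the rule. Without plate 2 it was 1.66, and with at least 2000 genes and 200000 reads, which leaves 1 cell of 24 months, it was -4.53.

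The level in a single cell varied far more than the plate sums. In the 45 cells of 2 months with reads, Tnfrsf11b ranged from 2.57 to 6141 CPM with a median of 602, and 15 cells had at least 1000 CPM. Plate medians of such cells were close, at 586 CPM on plate 1, 620 on plate 3 and 602 on plate 4. Plates 3 and 4 thus differed in how many cells held the gene and hardly in the median level within them. The upper ends did differ, with the highest cell at 6141 CPM on plate 3 and 3278 CPM on plate 4. At 24 months the 3 cells stood at 3002, 923 and 12.8 CPM, and at P3 the 2 cells stood at 1011 and 7.73 CPM, all within the range of 2 months.

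**Figure D2:**
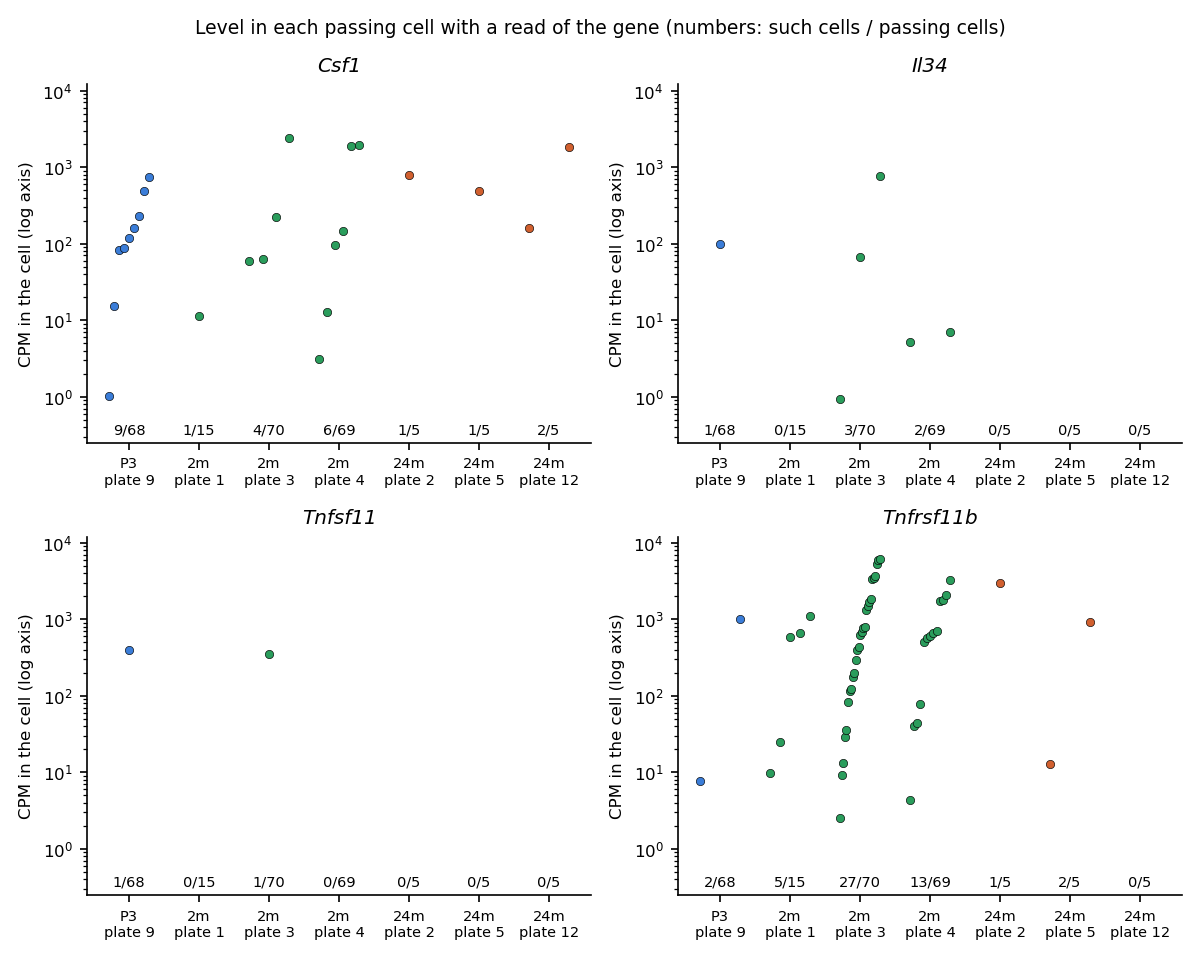
Level of each gene (CPM, log axis) in every passing cell with at least 1 read of it, by age and plate; cells with no read are not drawn, the fraction under each column gives cells with a read over passing cells, and the horizontal spread within a column only separates points. Tnfrsf11b fills the plates of 2 months up to 6141 CPM, Csf1 is thin at every age, and Tnfsf11 appears in 2 cells.

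Most cells with osteoprotegerin carried a cartilage profile, as did most cells of 2 months, and a few did not. At 2 months the 41 holders held a median of 13 of the 20 cartilage genes, against 14 in the other cells, and a median of 3.00 against 4.00 of the 18 osteoblast genes. Col2a1 was held by 37 of the 41 (90.2%, 76.9% to 97.3%) and by 81.4% of the others. Comp, an extracellular matrix protein of cartilage, was held by 92.7% and 78.8%, and Sox9, the transcription factor that specifies chondrocytes, by 87.8% and 78.8%. In bone matrix genes, Ibsp was held by 17.1% and 23.9%, and Col1a1 by 19.5% and 23.9%. Runx2, the osteoblast transcription factor, was held by 17.1% and 25.7%. Of the holders, 10 held fewer than 10 cartilage genes, and a cell of plate 4 with 699.8 CPM of Tnfrsf11b held 2 of them, 12 osteoblast genes and 110533 CPM of Col1a1. The 3 cells of 24 months were unlike each other: they held 3, 1 and 10 cartilage genes in order of falling Tnfrsf11b level, and the second of them held 7 osteoblast genes and had 25461 CPM of the marrow chemokine Cxcl12. Both P3 cells with reads held 15 cartilage genes.

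A gene counted as held more or less often with a signal when at least 20% of holders or of other cells held it, the shares differed at least 2-fold, and the direction was the same on each plate with at least 5 cells of both kinds. With osteoprotegerin, 7.93% of the 2144 genes tested were held more often and 1.03% less often. Of the listed genes, 1 of 19 cartilage genes tested (Prg4), 1 of 3 growth plate genes (Panx3), 1 of 6 receptors for inducers of RANKL or osteoprotegerin (Il6st) and 0 of 11 osteoblast genes were held more often. No listed bone or cartilage gene was held less often, and 1 of 3 listed targets of canonical Wnt signalling tested was (Lef1). These shares are near or below the background, apart from lists of 6 genes or fewer.

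Prg4 encodes lubricin, the lubricant of the joint surface. It was held by 19 of 41 cells with osteoprotegerin (46.3%, 30.7% to 62.6%) and by 22 others (19.5%, 12.6% to 27.98%). The difference came from plate 3, with 64% against 24.4%, while plate 4 had 25% against 15.8% and plate 1 had 0% against 18.2%. Without plate 3 the shares were 18.8% and 16.2% and Prg4 no longer met the rule, nor did it with all reads or in another random draw. Panx3, a channel protein of hypertrophic chondrocytes, was held by 29.3% against 12.4% of cells, and on plate 4 by 50% against 15.8%. It met the rule in every alternative but the one with all reads (28.9% against 14.7%). Il6st, the shared receptor chain gp130 for interleukin 6 and its relatives, was held by 29.3% against 14.2%, and it missed the rule in 4 of 9 alternatives.

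Outside the lists, the widest difference with osteoprotegerin was in Cytl1, a small secreted protein of cartilage. Cytl1 was held by 27 of 41 cells with Tnfrsf11b (65.9%, 49.4% to 79.9%) and by 27 others (23.9%, 16.4% to 32.8%), with 75% against 18.2% on plate 1, 72% against 33.3% on plate 3 and 50% against 17.5% on plate 4. It met the rule in all 9 alternatives. Yipf4, a Golgi membrane protein, was held by 48.8% against 16.8% and also met it in all 9. Tgoln1, of the trans-Golgi network, at 58.5% against 25.7%, Chmp2a, of the membrane-cutting ESCRT machinery, at 48.8% against 16.8%, and Gas1, a Hedgehog co-receptor, at 43.9% against 13.3%, completed the 5 widest differences and missed it in 1 to 3 alternatives. Lef1, a transcription factor that is both a partner and a target of Wnt signalling, was the gene held less often by the widest difference, by 4 of 41 cells (9.76%, 2.72% to 23.1%) against 36 others (31.9%, 23.4% to 41.3%). It met the rule in all 9 alternatives. Rpl37, Rpl9-ps4, Ppp1cc and Sorbs2 followed, each lost in 4 or more alternatives, and the ribosomal protein gene Rpl37 shares sequence with pseudogenes. Low Lef1 was not particular to cells with osteoprotegerin. On plates 1, 3 and 4, 0 of 1, 0 of 4 and 0 of 5 cells with Csf1 held Lef1, against 14.3%, 21.2% and 37.5% of cells without Csf1. Of 3 listed Wnt targets tested, 2 were held less often with Csf1, where 13.1% of all genes were.

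Holders of osteoprotegerin were sequenced more deeply, with a median of 895932 gene reads against 649663, and held more genes after thinning, with a median of 1434 against 1259. With cells limited to 1000 to 1800 genes at 50000 reads, a limit chosen after the data were seen, Cytl1 stood at 69.6% against 29.6%, Lef1 at 8.70% against 36.6% and Prg4 at 47.8% against 22.5%. Macrophage and blood genes were held by 2 of the 41 and endothelial genes by 0. Over the cells of plate 3 (70) and plate 4 (69), the genes whose log2(CPM + 1) followed Tnfrsf11b most closely were Pid1, Yipf4, Cytl1, Cd9 and Vti1b. Spearman's rho was 0.41 and 0.26 for Cytl1 and no higher than 0.41 for any of them, among 1531 genes compared. Values this low in sparse counts describe these cells, which share plate and depth.

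**Figure D3:**
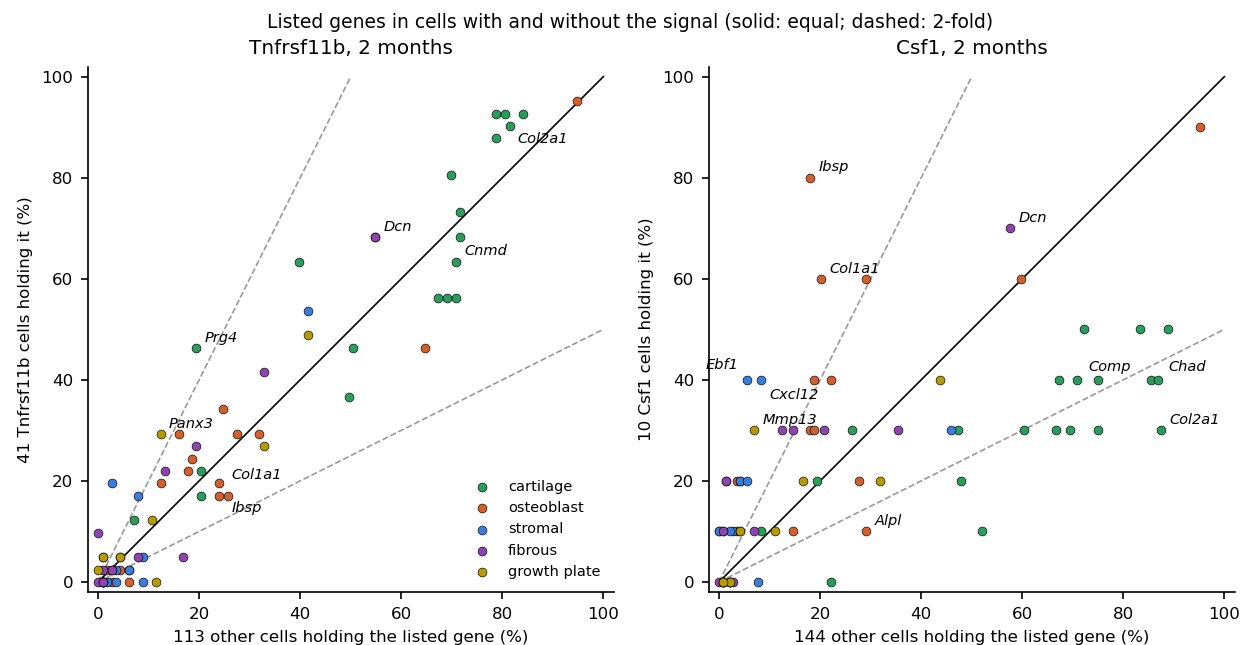
Listed genes at 2 months: share of cells without the signal (%, horizontal axis) and with it (%, vertical axis) that held each gene, for Tnfrsf11b (left) and Csf1 (right), coloured by list. Cartilage genes lie near the solid line of equal shares for Tnfrsf11b, with Prg4 above it, and below the line for Csf1, where Ibsp and Col1a1 lie above it; each step of 10% in the right panel is 1 cell.

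M-CSF was held by few cells at each age, and by 4 of the 15 cells at 24 months. Csf1 was held by 7 of 68 cells at P3 (10.3%, 4.24% to 20.1%), 10 cells at 2 months (6.49%, 3.16% to 11.6%) and 4 of 15 at 24 months (26.7%, 7.79% to 55.1%). With all reads the numbers were 9, 11 and 4. Plate sums were 36.3 CPM at P3, 0.0485, 19.5 and 70.2 CPM on plates 1, 3 and 4 of 2 months, and 129.1, 89.74 and 214.3 CPM on plates 2, 5 and 12 of 24 months. All 3 plates of 24 months lay above the others.

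By the size rule Csf1 was higher at 24 months than at 2 months, with 144.4 CPM (SD 63.7, n = 3 plates) against 29.9 CPM (SD 36.2, n = 3 plates) and a log2 fold of 2.23, as were 1.56% of 8804 genes tested. It was also higher at 24 months than at P3 (log2 fold 1.96, and 2.21 within batch 3, which holds the P3 plate and plates 2 and 12), as were 2.62% of 9062 genes. The P3 level lay among the plates of 2 months, with a log2 fold of 0.27 that did not meet the rule (28.1% of genes did, as higher at P3), though without plate 4 it was 1.79 and did. Each of these sums rests on very few cells. On plates 2 and 5 of 24 months all Csf1 reads came from 1 cell, on plate 12 84.9% did, and on plates 3 and 4 of 2 months 83.6% and 60.97% did. The 4 cells of 24 months stood at 1813, 779.0, 488.9 and 159.8 CPM. At 2 months 4 cells lay in or above that range, up to 2426 CPM, so single cells of both ages reached like levels. With wells of at least 500 genes, Csf1 was found with all reads in 9 of 65 cells of 24 months (13.8%, 6.53% to 24.7%) and 12 cells of 2 months (6.52%, 3.41% to 11.1%). The share at P3 was then 9 of 72 cells (12.5%). The plates overlapped and the rule was not met, at a log2 fold of 2.24 against 2 months and 2.35 against P3. Cells of 24 and 2 months also differed in make-up. Of the 20 cartilage genes, 15 were lower at 24 months (median log2 fold -4.87), where 29.7% of all genes were. Among cells with 0 to 4 cartilage genes, Csf1 was held by 3 of 12 at 24 months (25%, 5.49% to 57.2%). At 2 months it was held by 6 of 21 such cells (28.6%). That grouping was chosen after the data were seen, and whether make-up bears on the Csf1 difference was not tested.

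At 2 months, cells with M-CSF held fewer cartilage genes and more osteoblast genes than other cells. The 10 holders held a median of 2.50 of 20 cartilage genes against 14 in the other cells, and 5.50 of 18 osteoblast genes against 3.00. Of 19 cartilage genes tested, 10 were held less often and 0 more often, where 13.1% of all 3495 genes tested were held less often. Of 13 osteoblast genes, 6 were held more often, among them Ibsp, Col1a1, Spp1 and Dlx5, and 1 less often (Alpl). Spp1 and Dlx5 each missed the rule in 3 of 9 alternatives, among them the one without plate 3. This is set against a background where 26.7% of all genes were held more often. With 10 holders, 2 cells already reach the 20% the rule asks for. Of 6 marrow stroma genes 2 were held more often (Ebf1 and Pdgfra), of 6 fibrous genes 3 (Postn, Fbn1 and Dpt) and of 4 growth plate genes 1 (Mmp13). Ebf1 and Mmp13 missed the rule without plate 3.

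Ibsp, which encodes bone sialoprotein, showed the widest difference of all genes, in 8 of 10 holders (80%, 44.4% to 97.5%) against 26 others (18.1%, 12.1% to 25.3%). On plate 3 it was held by 4 of 4 cells with Csf1 against 19.7% of others, and on plate 4 by 80% against 18.8%. Col1a1, the main collagen of bone, was held by 6 of 10 (60%) against 20.1%. Col2a1 was held by 3 of 10 (30%, 6.67% to 65.2%) against 87.5% (80.97% to 92.4%), the widest difference in the other direction, followed by Selenok (10% against 61.1%), the cartilage matrix genes Chad (40% against 86.8%) and Comp (40% against 85.4%), and Gm28661. Plekha5, Ktn1, the class I antigen gene H2-D1 and Tcf7l1 followed Ibsp. Ibsp, Col1a1 and Col2a1 met the rule in all 9 alternatives, whereas Chad missed it in 4 and Comp in 5. The count of cartilage genes held less often ranged from 4 of 20 to 14 of 18 over the alternatives. That of osteoblast genes held more often ranged from 2 of 10 (without plate 3) to 8 of 14 (without plate 4). The share of all genes held more often was then 29.65% and 63.9%. At 200000 reads it was 50.6%, with 5 of 11 osteoblast genes, and in cells with 1000 to 1800 genes 54.9%, with 6 of 12. In these alternatives the osteoblast share lay below that of all genes, and in the others near or above it.

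The holders were shallower, with a median of 264221 gene reads against 718272, but held a like number of genes after thinning (median 1266 against 1276). On plate 1 the only holder had a single Csf1 read among 87139 and 5508 CPM of the hemoglobin gene Hba-a1. When at least 2 reads were needed, 8 cells held Csf1, 14 of 18 cartilage genes were held less often and 5 of 12 osteoblast genes more often.

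Cells of 2 months were also ordered by their cartilage genes, a grouping chosen after the data were seen that restates the low cartilage counts of the Csf1 cells. Among the 21 cells with 0 to 4 cartilage genes, 6 held Csf1 (28.6%, 11.3% to 52.2%) and 3 held Tnfrsf11b (14.3%, 3.05% to 36.3%). Among the 42 cells with 10 to 14 of them, 1 held Csf1 (2.38%, 0.0603% to 12.6%) and 15 held Tnfrsf11b (35.7%, 21.6% to 51.97%). Among the 66 cells with 15 to 20, 2 held Csf1 (3.03%) and 16 held Tnfrsf11b (24.2%). For Tnfrsf11b these intervals overlap throughout. For Csf1 the interval of the first group overlaps that of the cells with 10 to 14 and not that of the cells with 15 to 20 (0.369% to 10.5%). The first group was also the shallowest, with a median of 345127 gene reads and 992 genes after thinning, against 746480 and 1626 in the last.

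**Figure D4:**
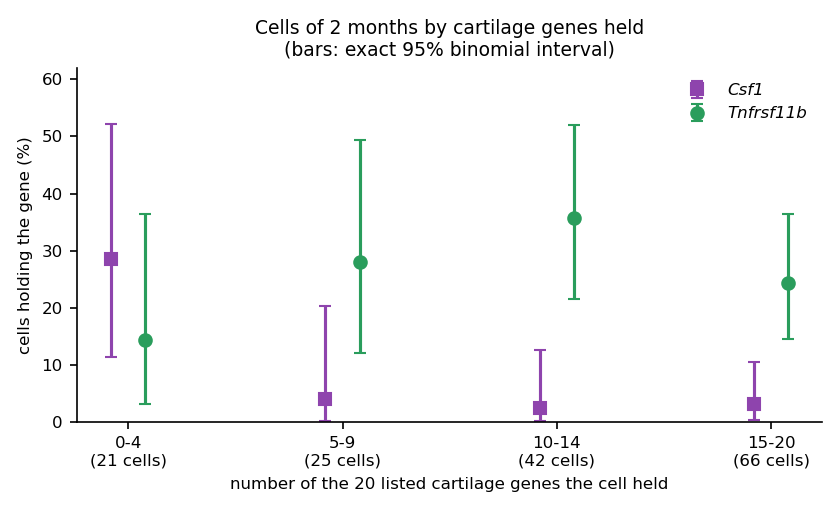
Share of the cells of 2 months holding Csf1 or Tnfrsf11b (%, vertical axis) by how many of the 20 listed cartilage genes the cell held (horizontal axis, with the number of cells); bars are exact 95% binomial intervals. Csf1 falls from 28.6% in cells with 0 to 4 cartilage genes to 2.38% and 3.03% in the last 2 groups, and Tnfrsf11b stands between 14.3% and 35.7%.

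The single cells with M-CSF were of several kinds. At 2 months the cell with most Csf1, at 2426 CPM on plate 3, held 6 of 14 marrow stroma genes and 7 osteoblast genes, with 10357 CPM of Cxcl12, 1510 CPM of the leptin receptor Lepr and 25032 CPM of the bone matrix gene Spp1. A cell of plate 4 with 1892 CPM held 8 osteoblast genes and 36606 CPM of Ibsp. A cell of plate 4 with 146.3 CPM held 11 osteoblast genes, with 106875 CPM of Col1a1 and 5680 CPM of the osteoblast hormone gene Bglap. The remaining cell above 1000 CPM, at 1936 CPM on plate 4, held 8 cartilage genes and 1 osteoblast gene. The cells with 16 and 18 cartilage genes had 59.1 and 12.7 CPM of Csf1. Cells with 2, 1 and 0 cartilage genes were also found at 11.5, 63.6 and 94.8 CPM, and a cell with 11 had 222.2 CPM.

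At 24 months all 4 cells with Csf1 held 3 to 6 marrow stroma genes, and the other 11 cells held 0 to 5 (median 1). For fibrous genes the numbers were 3 to 5 and 0 to 5 (median 2), so both ranges overlapped. All 4 cells with Csf1 had reads of Ebf1, a transcription factor of marrow stroma. It stood at 313 CPM on plate 2, 7071 CPM on plate 5 and 972 and 3362 CPM on plate 12. The cell of plate 2 had 70211 CPM of Cxcl12. The cell of plate 5 held 11 osteoblast genes and 4997 CPM of Ibsp. The cells of plate 12 had 24489 and 3552 CPM of Prg4 and no Cxcl12. The 4 cells thus share Ebf1 and differ in other stromal, bone and joint surface genes. How many of the other 11 cells had Ebf1 is not given here, so it is not shown to be particular to these 4. The 12 marrow stroma genes tested between 24 and 2 months had a median log2 fold of 4.36, against -1.56 over all genes. Of the 12, 1 was higher by the rule, where 1.56% of all genes were. None of the 4 cells had a read of Col2a1.

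At P3 the holders of Csf1 did not stand apart from other cells. They held a median of 13 cartilage genes against 14 and 3 osteoblast genes against 3, and they fell on both sides. The cells at 739.5, 160, 118.2 and 86.6 CPM held 16, 17, 17 and 13 cartilage genes and had 32388 to 195746 CPM of Col2a1. The other 3 cells, the highest at 488.5 and the lowest at 81.6 CPM, held 1, 5 and 2 of them, had no read of Col2a1, and had 48954, 58782 and 62800 CPM of Col1a1 and 20210 to 43348 CPM of Col3a1, a collagen of fibrous tissue. Among P3 cells with 0 to 4 cartilage genes 2 of 24 held Csf1 (8.33%, 1.03% to 27%), and among those with 15 to 20, 3 of 29 did (10.3%, 2.19% to 27.4%). Whether the pattern at P3 differs from that at 2 months was not tested.

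**Figure D5:**
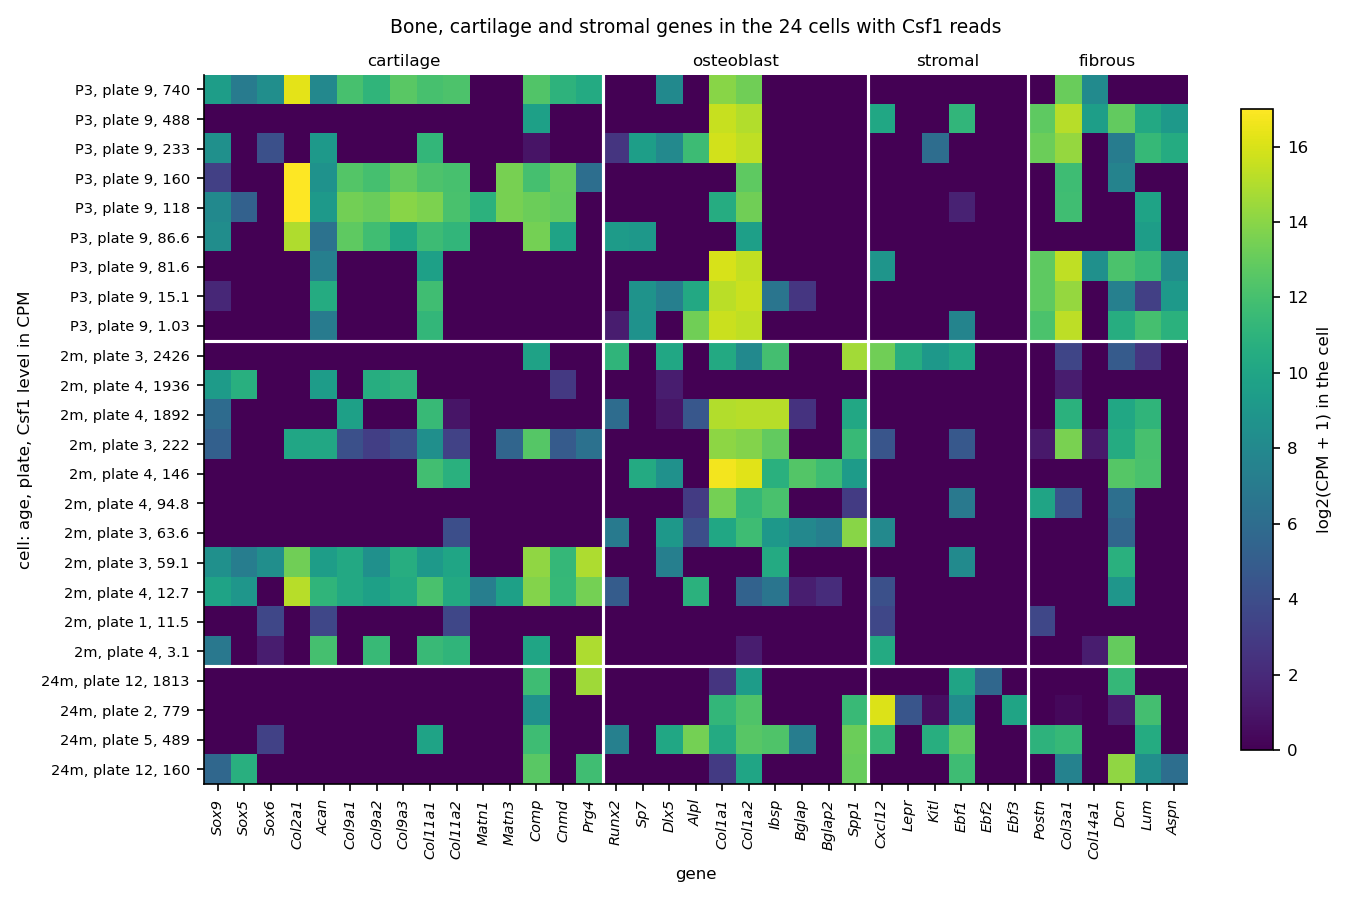
Each line is 1 of the 24 passing cells with Csf1 reads (age, plate and Csf1 level in CPM at the left, ordered by level within an age), each column a listed gene, and colour gives log2(CPM + 1) from 0 to 17. Cartilage genes fill 4 of the 9 P3 cells and few of the older ones, bone matrix genes fill most cells of 2 months, and Ebf1 has reads in all 4 cells of 24 months.

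Il34 was nearly as rare as RANKL, and 3 of the 6 cells with reads held it at under 7 CPM. It was held by 1 of 68 cells at P3 (1.47%, 0.0372% to 7.92%), at 99.5 CPM, and by 2 cells at 2 months (1.30%, 0.158% to 4.61%), and with all reads by 5. Those 5 cells stood at 761, 66.5 and 0.938 CPM on plate 3 and at 6.97 and 5.21 CPM on plate 4, so 1 cell carried 97.2% of the reads of that age. No passing cell of 24 months had a read, which allows up to 20% by the same limit of 3 of 15. The P3 cell held 15 cartilage genes and the 2 holders of 2 months held 9 and 8, with 5 and 3 osteoblast genes. The Il34 sums were 0.424 CPM at P3 and 0, 22.8 and 0.125 CPM on plates 1, 3 and 4 of 2 months, and the antisense genes named above add to this uncertainty.

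The signals were rarely found in the same cell. After thinning, 70 cells held at least 1 of the 4 genes and 1 cell held more than 1, a cell of 2 months on plate 3 with 66.5 CPM of Il34 and a Tnfrsf11b level of 114.7 CPM. Csf1, in 21 cells, and Tnfrsf11b, in 45, were not held together in any cell. With 10 holders of Csf1 among the cells of 2 months few shared cells could arise, so this count is a description and no sign that the genes exclude each other. With all reads they met in 2 cells of 2 months, and there the lesser of the pair was at trace level: 222.2 CPM of Csf1 with 2.57 CPM of Tnfrsf11b on plate 3, and 1717 CPM of Tnfrsf11b with 3.09 CPM of Csf1 on plate 4. Neither RANKL cell had a read of osteoprotegerin, Csf1 or Il34.

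Levels of different genes were compared per kilobase of the longest annotated transcript. At 2 months Tnfrsf11b stood at 131.7 CPM per kilobase, Csf1 at 7.17, Il34 at 4.25 and Tnfsf11 at 0.611, so osteoprotegerin was 215.6 times RANKL and 18.4 times M-CSF. At P3 the order was Csf1 at 8.69, Tnfrsf11b at 6.30, Tnfsf11 at 3.25 and Il34 at 0.236 CPM per kilobase, with osteoprotegerin at 1.94 times RANKL. At 24 months Tnfrsf11b stood at 114.7 and Csf1 at 34.6, a ratio of 3.32, with no read of the other genes. With RANKL in 1 cell at each of the younger ages, these ratios to RANKL have no stable error.

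The receptors on the osteoclast side were almost without reads. Csf1r stood at 0 CPM at P3 and 24 months and 0.165 CPM at 2 months, and Tnfrsf11a at 0 and 0.0397 CPM. Of the 6 listed partners, 3 could be tested between 24 and 2 months and 1 was higher, where 1.56% of all genes were. It was Lgr4, a receptor for R-spondins that also binds RANKL. Lgr4 stood at 62.2 CPM (plates 44.3 to 96.3) against 27.6 CPM (17.8 to 34.8), a log2 fold of 1.15. With TMM scaling its log2 fold was 0.93 and it missed the rule, and with wells of at least 500 genes the plates overlapped. Lgr4 was held by 8 of 15 cells of 24 months (53.3%) and 45 cells of 2 months (29.2%). Sdc1, a syndecan that binds interleukin 34, was lower at 24 months than at P3, at 71.7 against 253.2 CPM (log2 fold -1.81), where 53.7% of genes were lower, but not with wells of at least 500 genes (-0.66).

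Among 14 receptors for hormones and cytokines known to set RANKL or osteoprotegerin, 12 could be tested between 24 and 2 months, and 0 were higher and 1 lower, where 29.7% of all genes were lower. That gene was Bmpr1a, a bone morphogenetic protein receptor, at 2.89 against 108.6 CPM (log2 fold -4.82, and -0.38 with wells of at least 500 genes). The median log2 fold of the 12 was 0.43, against -1.56 over all genes tested. Between P3 and 2 months 2 of 12 were higher (Il11ra1 and Tnfrsf1a), where 28.1% of all genes were, and 2 lower, where 10.1% were. The lower ones were the parathyroid hormone receptor Pth1r, at 181.5 against 736.6 CPM (log2 fold -2.01), and the LIF receptor Lifr, at 67.1 against 1191 CPM (log2 fold -4.13), with a median of 0.05 against 0.23. With TMM factors Il11ra1 missed the rule (log2 fold 0.91), and with wells of at least 500 genes Tnfrsf1a did (-0.90). Between 24 months and P3, 11 could be tested. Lifr was higher, at 5825 CPM at 24 months (plates 936.4 to 14410, log2 fold 6.42), where 2.62% of all genes were. Osmr and Bmpr1a were lower (log2 fold -3.96 and -4.70), where 53.7% of all genes were. Bmpr1a missed the rule with wells of at least 500 genes (-0.39), and Osmr when a gene had to be held by at least 10% of cells.

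Age means of the other listed signals to osteoclasts ranged from 0 to 310 CPM (Cthrc1 at P3). Tnf, Ccl2 and Ccl9 had no reads in passing cells of any age, and Il6, Il1b, Il11 and Lif stood at 1.15 CPM or less. Of the 18 listed, 8 could be tested between P3 and 2 months, and 5 were higher at P3 (28.1% of all genes were) and 0 lower (10.1% of all), with a median log2 fold of 2.14 against 0.23 over all genes. They were Sfrp1, a secreted Wnt antagonist (4.23 CPM at 2 months, log2 fold 5.45), Cthrc1 (310 against 76.7 CPM, 2.00), the growth factor Igf1 (199.3 against 40.2 CPM, 2.28), Wnt5a (42.1 against 7.69 CPM, 2.31) and Sema3a (32.96 against 1.08 CPM, 4.03). With equal weight for each cell the fold of Wnt5a was 0.52 and missed the rule. Wnt5a and Sema3a were held by 5 and 2 cells at P3. Both missed the rule when a gene had to be held by at least 10% of cells, where 3 of 4 tested were higher. With TMM factors 5 were higher and 1 lower. Between 24 and 2 months, where 29.7% of all genes were lower, 1 of 7 tested was, Tgfb2, at 154.7 CPM and in 37 cells at 2 months and with no read at 24 months. Of 10 targets of canonical Wnt signalling, 4 could be tested between these ages. Of these 1 met the rule, against the same background of 29.7%: Lef1 was lower at 24 months, at 113.8 CPM (plates 0.922 to 242.3) in 40 cells of 2 months and without a read in the 15 cells of 24 months.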

How the data were processed

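Single cells from male mouse long bones were measured by SmartSeq2. The deposited table gives, for each cell, expected counts per gene, which RSEM estimates. Per the submitters' processing notes, bcl2fastq 2.18, STAR 2.4 and RSEM 1.2.21 were used with GRCm38.p6. The annotation release, strand setting and earlier filters are not given in the sources used here. Counts were rounded (14.8% of values above 0 were not whole), and 92 spike-in rows were kept out of totals. Another 24 rows named by 5 digits instead of a gene name stayed in totals and are not reported. A listed gene that is counted in its list is not reported here by itself. A column was tied to its sample through the plate, the well, the age and the index sequences in its name, and 1 column matched no sample and was not used. No index pair was shared between wells and no passing cells were identical (0 of each).

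Of 670 wells, 237 passed: 68 of 95 at P3, 154 of 287 at 2 months and 15 of 288 at 24 months. At 2 months this left 113 cells without Tnfrsf11b and 144 without Csf1 after thinning. Reads of passing cells (62919 to 5994911 gene reads per cell) were added up over each plate and scaled to CPM, and an age is the mean of its plates. Doublets were not called. Thinning used 1 random draw. Genes are named where they are 1 of the 4, belong to a list, show the 5 widest differences in share in each direction for a gene held by at least 10 cells of an age, or are the 5 most like Tnfrsf11b. The 4 genes and the lists were chosen with earlier results of these data known. Coordinates and lengths are from GENCODE M21, and promoters from RefSeq. The calculations were checked on simulated data. Alternatives changed the scaling (TMM factors, edgeR 4.0.16 in R 4.3.3), the CPM added, the cell filter, the weighting, the depth of thinning, the reads needed, the draw and the plates. Other tools were matplotlib 3.10.9, scipy 1.17.1, pandas 2.3.3 and numpy 2.4.6 in Python 3.11.15.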

Additional observations from a re-analysis of the deposited data

Results flagged for a closer look

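The signals also had reads in wells that did not pass, which the comparisons left out. At 24 months Csf1 had reads in 9 of these wells, up to 27360 CPM in a well of plate 2 with 260 genes, and 4 wells of plate 12 with 600 to 939 genes stood at 598 to 4018 CPM. Il34, absent from passing cells of that age, had reads in 4 such wells, at 11000 CPM on plate 12 and 9254, 41.5 and 2.86 CPM on plate 5. Tnfrsf11b had reads in 4 such wells of 24 months, at 459 to 6958 CPM, and in 7 of 2 months. Tnfsf11 had reads in 2 wells of 24 months, at 3426 and 0.683 CPM. The well with 3426 CPM of Tnfsf11 is also the one with 598 CPM of Csf1, and it held 7 osteoblast genes and 1 cartilage gene with all reads. These wells hold few genes, so their levels rest on little RNA.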

How the results depend on the processing

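Over 33 results, 34 alternative values moved beyond counting error or 1.5 times and 8 newly met the size rule. Of values that met it, 2 no longer did and 2 changed direction. Folds that did not meet the rule also changed sign, among them Csf1 at P3 against 2 months (0.27, lowest -0.30), Tnfrsf11b at 24 against 2 months (-0.20, highest 0.38) and at 24 months against P3 (4.11, and -4.53 with the strictest cell filter). Csf1 at 24 against 2 months was 1.66 to 3.75 with any 1 plate left out and met the rule each time, but missed it at 2.24 with wells of at least 500 genes. With at least 2000 genes and 200000 reads, which leaves 1 cell of 24 months, its log2 fold was -5.62 against 2 months and -5.53 against P3. Of Il34 and Tnfsf11, below 10 CPM at both ages, the log2 fold of 24 against 2 months turned, from -3.11 to 3.37 and from -1.24 to 3.60 with wells of at least 500 genes. The share of cells of 2 months with Tnfrsf11b was 19.05% to 34.12% with 1 plate left out.

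The counts of genes held with a signal depended on the processing. With Tnfrsf11b, 7.93% of genes were held more often, but 2.67% with all reads (84 genes), 3.14% in another random draw (66, of which 39 were shared with the first draw), and 9.30% to 24.7% with a plate left out (580 without plate 3). The share held less often, 1.03%, was 2.64% at 200000 reads (71), 0.721% when 2 reads were needed (13), 0.436% with wells of at least 500 genes (9), 5.33% in cells with 1000 to 1800 genes, and 1.40% to 3.88% with a plate left out. With Csf1, 26.7% were held more often, against 17% with all reads (550), 50.6% at 200000 reads (3003), 20.6% with wells of at least 500 genes (420), 54.9% in cells with 1000 to 1800 genes (2437), and 26.9% to 63.9% with a plate left out (4169 without plate 4). The share held less often was 13.1%, 14.2% with wells of at least 500 genes, and between 5.86% (200000 reads) and 17.7% (2 reads needed, or without plate 3) over all alternatives. The cause was not tested. TMM factors moved the median of all genes by -0.18 (log2) for 24 against 2 months. No paired analysis was possible because replicate numbers only name cells.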
